A study of Homo sapiens with 5 samples.

Results

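C/D box small nucleolar RNAs (snoRNAs) are short RNAs of the nucleolus named after a pair of sequence elements, the C box near the 5′ end and the D box near the 3′ end. In DAOY, an established human SHH medulloblastoma cell line, 17 of the 370 genes listed under a SNORD symbol had a mean level of at least 1 TPM over 5 RNA-seq libraries. They were chosen by that rule, from the symbol and the mean level, so the levels are given as a description. The whole table lists 60504 genes in TPM, the share of a gene's transcripts per 1000000, which corrects for length and scales each library to the same total. The cells received 20 nM siRNA for 48 h. It was either non-targeting in the 2 si-NC libraries or directed, in the 3 si-circ_63706 libraries, against circ_63706, a circular RNA made from PCNT exons. The comparison asked which transcripts change when circ_63706 is depleted. The labels do not say which siRNA sequence each si-circ_63706 library received, nor whether replicates came from separate cultures, so p values measure the spread between these libraries, which may be technical. Depth and counting error are unknown, since TPM carry neither, and a value of 0 means only that a gene was listed at 0.

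Most C/D box snoRNAs sit in introns of host genes and are trimmed out of the debranched intron, whereas U3 and U8 have promoters of their own. Each is bound by SNU13, NOP56, NOP58 and fibrillarin (FBL), the methyltransferase of the particle. C/D box snoRNAs are best known for guiding 2′-O-methylation of ribosomal RNA or of U6 spliceosomal RNA by base pairing, whereas U3, U8 and U22 act in cutting and folding of the ribosomal RNA precursor. The nucleolar particles are needed in every growing cell, tumour cells included.

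The sequences below, read from the GENCODE 29 transcripts of GRCh38 and written 5′ to 3′ with T for U, show the members on which the results turn. Capitals mark the first TGATGA, a C box motif, and the last CTGA, the D box motif. The 217-base transcript of SNORD3A (U3, chr17:19188016-19188232, plus strand) is shown because U3 was the most abundant member and holds both motifs near its 3′ end.
SNORD3A: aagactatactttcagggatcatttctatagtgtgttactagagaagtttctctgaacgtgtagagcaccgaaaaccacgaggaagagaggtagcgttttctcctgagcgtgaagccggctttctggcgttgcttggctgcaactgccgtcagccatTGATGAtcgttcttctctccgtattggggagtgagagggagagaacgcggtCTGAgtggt
SNORD17 (chr20:17962710-17962946, minus strand), a guide for 28S ribosomal RNA, is shown as a member that was higher with si-circ_63706.
SNORD17: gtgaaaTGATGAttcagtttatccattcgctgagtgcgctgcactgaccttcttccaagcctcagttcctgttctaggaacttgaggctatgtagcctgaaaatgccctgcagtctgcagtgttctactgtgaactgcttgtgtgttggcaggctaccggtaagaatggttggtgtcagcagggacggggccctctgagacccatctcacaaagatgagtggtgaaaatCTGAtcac
SNORD97 (chr11:10801467-10801608, minus strand), which guides methylation of the elongator methionine tRNA, and SNORD10 (chr17:7576811-7576952, plus strand), a U6 guide, are shown as members that were lower. SNORD97 holds neither exact motif, and SNORD10 lacks TGATGA.
SNORD97: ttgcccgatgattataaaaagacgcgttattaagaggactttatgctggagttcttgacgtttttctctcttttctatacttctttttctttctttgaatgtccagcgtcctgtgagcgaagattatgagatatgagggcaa
SNORD10: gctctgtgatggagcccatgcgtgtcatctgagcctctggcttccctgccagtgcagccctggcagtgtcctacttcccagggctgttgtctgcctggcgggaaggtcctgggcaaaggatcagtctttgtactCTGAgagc
SNORD67 (chr11:46762389-46762499, minus strand) and SNORD8 (chr14:21397292-21397401, minus strand), a pair of U6 guides, are shown as the shortest members by their longest transcript, with 111 and 110 bases.
SNORD67: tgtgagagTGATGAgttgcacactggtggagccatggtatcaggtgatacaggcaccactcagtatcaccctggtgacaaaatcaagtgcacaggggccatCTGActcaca
SNORD8: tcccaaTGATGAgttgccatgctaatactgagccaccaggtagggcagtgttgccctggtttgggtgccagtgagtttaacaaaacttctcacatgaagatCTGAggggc
The genes that share the symbol SNORD22 (U22) are shown to make their difference visible: ENSG00000277194 (chr11:62852910-62853035, minus strand) and ENSG00000278527 (chr11:62854161-62854285, minus strand) lie in the same host gene, SNHG1, and were identical at 63.6% of aligned positions. GENCODE 29 names the second one RF00099, after a family of RNA models.
SNORD22 (ENSG00000277194): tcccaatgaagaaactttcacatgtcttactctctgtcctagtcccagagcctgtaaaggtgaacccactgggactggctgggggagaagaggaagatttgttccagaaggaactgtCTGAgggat
SNORD22 (ENSG00000278527): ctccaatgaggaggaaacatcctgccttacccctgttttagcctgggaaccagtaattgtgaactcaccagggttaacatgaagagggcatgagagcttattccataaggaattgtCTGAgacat
SNORD27 (chr11:62855012-62855083, minus strand), from the same SNHG1, is shown for contrast as a C/D box snoRNA of more usual size, 72 bases. It was listed at 0 in every library.
SNORD27: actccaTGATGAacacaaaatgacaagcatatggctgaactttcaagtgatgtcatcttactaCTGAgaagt
TGATGA and CTGA were searched on the transcript strand only, and both motifs share letters, so a D box motif may overlap the start of a C box motif. TGATGA was found in 12 of the 17 members and in 68.3% of 369 SNORD genes with a sequence, and in 2.86% of 420 SNORA genes. CTGA was found in 16 of the 17 members, in 94.9% of the SNORD genes and in 46.4% of the SNORA genes. A C box motif followed by a D box motif was found in 12 members, in 65.3% of the SNORD genes and in 0.238% of the SNORA genes. A match is a description of letters, and the share with CTGA shows how common a motif of 4 letters is.

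The members were the long genes of their family. A SNORD gene had a median length of 78 bases, counted on its longest annotated transcript, and none of the 336 SNORD genes of up to 100 bases was above 0 in any library. None of the 11 genes of 101 to 109 bases was above 0 either, and the shortest SNORD gene above 0 had 110 bases. Above that length, 3 of 5 genes of 110 to 119 bases, 4 of 4 of 120 to 139 bases, 5 of 5 of 140 to 199 bases and 6 of 8 of at least 200 bases were above 0. The H/ACA box snoRNAs also had no gene above 0 among 28 SNORA genes of up to 100 bases and 10 of 101 to 109 bases. Above 0 were 1 of 19 SNORA genes of 110 to 119 bases (5.26%), 106 of 303 of 120 to 139 bases (35%) and 19 of 50 of 140 to 199 bases (38%). Of all genes listed, 6 of 2634 up to 100 bases and 40807 of 49918 of at least 200 bases (81.7%) were above 0. The plot of detection by gene length shows these shares. The cause of the step at 110 bases among the SNORD genes was not tested. In all, 352 of the 370 SNORD genes were at 0 in every library, and these include all 137 genes of the imprinted orphan clusters listed, and SNORD13, SNORD14A to SNORD14E and SNORD3D, which belong to the list of snoRNAs that act in ribosomal RNA processing. These 0 values say nothing about whether the cells make these RNAs.

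**Figure D1:**
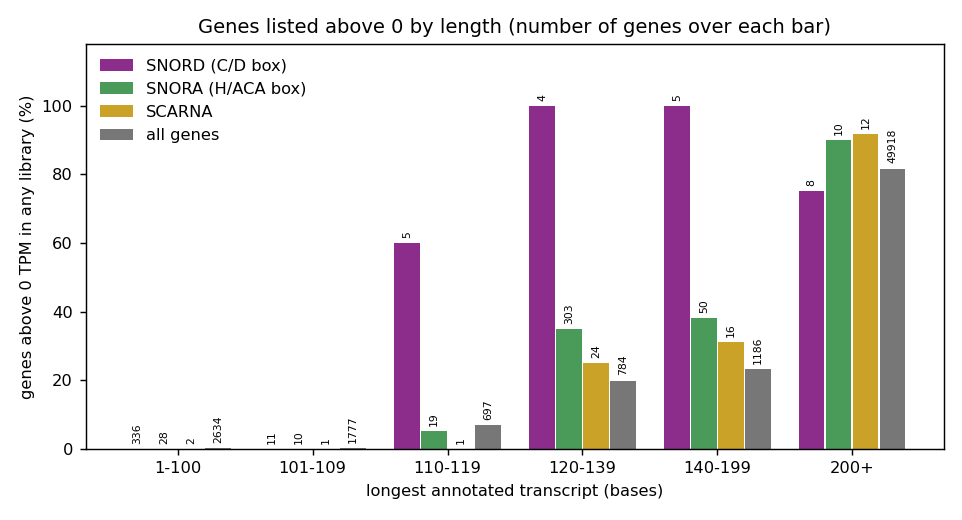
Share of genes listed above 0 TPM in at least 1 of the 5 libraries (vertical axis, percent) by length of the longest annotated transcript in bases (horizontal axis), for SNORD, SNORA and SCARNA genes and all genes listed. The number over each bar is the number of genes. No SNORD gene under 110 bases was above 0, while 18 of the 22 of at least 110 bases were.

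The levels of the members ran from a mean of 2753.75 TPM for SNORD3A to 1.35 TPM for SNORD91B. Those just inside the minimum were SNORD91B (a 28S guide, 0.49 and 2.72 TPM with si-NC and 0.90, 1.84 and 0.79 with si-circ_63706), SNORD3C and SNORD15A. The 1 SNORD gene above 0 but outside it was SNORD91A, with 1.24 and 0.92 TPM with si-NC and 0 in the 3 si-circ_63706 libraries. The mean of each group taken alone was at least 1.18 TPM for each of the 17 members, so none passed the minimum through 1 group only. All 17 therefore entered the test. SNORD genes made up 0.476% and 0.477% of TPM with si-NC and 0.403%, 0.379% and 0.389% with si-circ_63706, with 16 and 17 of them above 0 with si-NC and 16, 14 and 16 with si-circ_63706. The plot of levels in every library shows the points lying close together for the abundant members and wide apart for the short ones. The residual spread had a median SD of 0.258 on the log2 scale in the 10 members of at least 140 bases and of 1.55 in the 7 shorter ones, against 0.0751 over all genes tested.

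**Figure D2:**
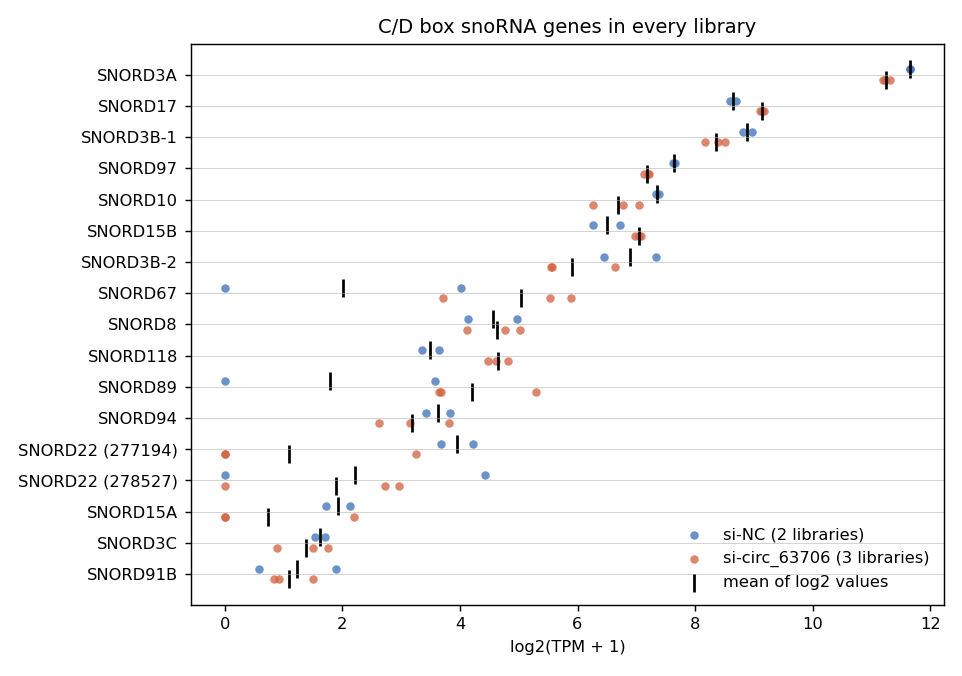
Level of each of the 17 C/D box snoRNA genes, as log2(TPM + 1) (horizontal axis), in the 2 si-NC (blue) and 3 si-circ_63706 (orange) libraries, with black ticks for the mean of the log2 values. SNORD3A, SNORD17, SNORD97 and SNORD118 show groups that stand apart, and SNORD67, SNORD89, both SNORD22 genes and SNORD15A have libraries at 0.

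With si-circ_63706, 3 members (SNORD17, SNORD15B and SNORD118) were higher and 4 (SNORD3A, SNORD3B-1, SNORD97 and SNORD10) were lower, by limma on log2(TPM + 1) at an adjusted p under 0.05 over all genes tested. Of 12710 genes tested, 4.16% were higher and 35.4% were lower. The share of members called, 41.2%, was near the 39.6% of all genes and so is no result about the members. The members had a median log2 fold change of -0.31 and all genes one of -0.16. In 4 members every si-circ_63706 library lay above both si-NC libraries, as in 8.93% of all genes, and in 5 members every one lay below, as in 55.2% of all genes. Fold changes here are for si-circ_63706 against si-NC on the log2(TPM + 1) scale, which understates the change of low genes.

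TPM are shares of a fixed total, and the makeup of that total differed between the groups. With si-NC, protein-coding genes took 29.0% of TPM in both libraries. With si-circ_63706 they took 25.2%, 26.2% and 26.9%. Centring every library by its own median log2 ratio to the average library (median centring) brought the median log2 fold change of all genes to 0.0024. Of all genes, 13.1% were then higher and 13.7% lower. The same 3 members then stayed higher, and SNORD3A, SNORD3B-1 and SNORD97 stayed lower, and the median of the members was -0.16, while SNORD10 did not pass (adjusted p = 0.148 from limma). Fewer cells that make an RNA and less of it per cell cannot be told apart in such bulk libraries.

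**Figure D3:**
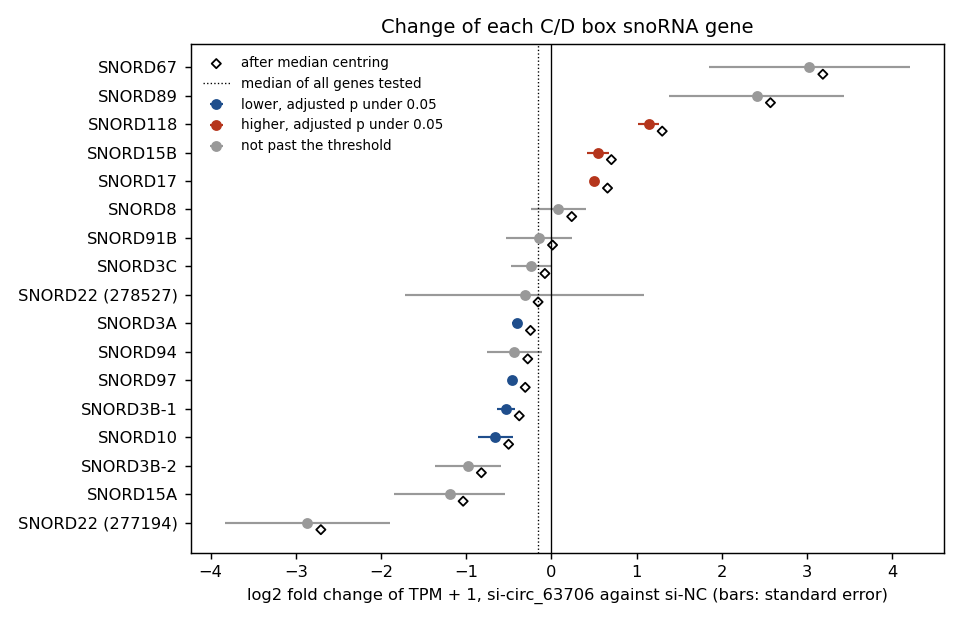
Log2 fold change of TPM + 1 for each member, si-circ_63706 against si-NC (horizontal axis), with standard errors, coloured by whether the adjusted p was under 0.05. Open diamonds give the value after median centring and the dotted line the median of all genes tested, -0.16. The members called lie between -0.66 (SNORD10) and 1.14 (SNORD118), and the widest bars belong to members with libraries at 0.

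U3, the most abundant of the group and a snoRNA needed for the early cuts that release the precursor of 18S ribosomal RNA, was lower with si-circ_63706. SNORD3A (ENSG00000263934, chr17:19188016-19188714) was at 3214.87 and 3235.31 TPM with si-NC and at 2553.89, 2346.73 and 2417.95 with si-circ_63706. All 3 si-circ_63706 libraries lay below both si-NC libraries. Its mean fell from 3225 ± 14.5 (SD, n = 2) to 2440 ± 105 (SD, n = 3), which is 75.6% of si-NC (log2 fold change -0.40, SE 0.0541, limma adjusted p = 0.00306). The log2 fold change was -0.24 after median centring and -0.16 after quantile normalization, with limma adjusted p values of 0.0274 and 0.0373. SNORD3B-1 (chr17:19061912-19062669) was at 448.71 and 498.81 TPM with si-NC and at 286.07, 334.39 and 362.58 with si-circ_63706. Its log2 fold change was -0.54 (SE 0.104, limma adjusted p = 0.00927), and without si-NC replicate 2 the adjusted p was 0.0701. SNORD3B-2 (chr17:19063346-19064136) was at 161.16 and 86.24 TPM with si-NC and at 98.13, 45.73 and 46.31 with si-circ_63706. Its groups overlapped, and the log2 fold change of -0.98 did not pass (adjusted p = 0.0896 from limma). It was -0.53 without si-NC replicate 1, -1.43 without si-NC replicate 2 and, past the threshold, -1.34 without si-circ_63706 replicate 1 (limma adjusted p = 0.0267). SNORD3C (chr17:19189665-19190245) was at 1.88 and 2.27 TPM with si-NC and at 0.85, 1.83 and 2.39 with si-circ_63706, also with overlap (log2 fold change -0.23, adjusted p = 0.473 from limma).

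The split among the U3 genes is uncertain. Their 217-base transcripts differed from that of SNORD3A at 1 position each, and those of SNORD3B-1 and SNORD3B-2 were identical. The annotation also gives these genes longer transcripts, of 699 bases for SNORD3A, 758 for SNORD3B-1, 791 for SNORD3B-2 and 581 for SNORD3C, and an estimate of expression can divide shared reads among such copies. The U3 genes were therefore also summed. The sum can still move with that division, since TPM divides reads by transcript length and the lengths differ. It was 3826.62 and 3822.63 TPM with si-NC and 2938.94, 2728.68 and 2829.23 with si-circ_63706, or 74.1% of the mean of si-NC. Fitted as 1 feature in place of the single genes, it was lower by a log2 fold change of -0.43 (SE 0.0521, limma adjusted p = 0.00228).

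U3 made up most of the summed level of the family. It took 80.5% and 80.1% of the summed SNORD TPM with si-NC and 72.9%, 72.0% and 72.8% with si-circ_63706. The sum over all SNORD genes was 4755.03 and 4774.20 TPM with si-NC and 4031.05, 3790.12 and 3885.59 with si-circ_63706, a difference of -862 between the means. Without the U3 genes the difference had the opposite sign: 928.41 and 951.57 TPM with si-NC against 1092.11, 1061.44 and 1056.36 with si-circ_63706. Rescaled to an equal protein-coding total, the whole sum differed by -398 TPM, and without SNORD3A it differed by -76.8 TPM. In each of these sums the groups did not overlap. The exact permutation test (two-sided, 2 against 3 libraries) gave p = 0.2, the smallest that this test as run allows. SNORD17 alone took 8.66% and 8.06% of the SNORD sum with si-NC and 14.3%, 14.5% and 14.6% with si-circ_63706. The mean of SNORD17 rose from 398 to 564 TPM, more than the 130 TPM by which the sum without the U3 genes rose. As deposited, the opposite sign of that sum therefore rested on SNORD17, and the other SNORD genes outside U3 were together lower with si-circ_63706. The sum without the U3 genes was not rescaled, so whether this holds at an equal protein-coding total was not tested. The stacked plot of summed TPM shows the U3 part shrinking and the SNORD17 part growing.

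**Figure D4:**
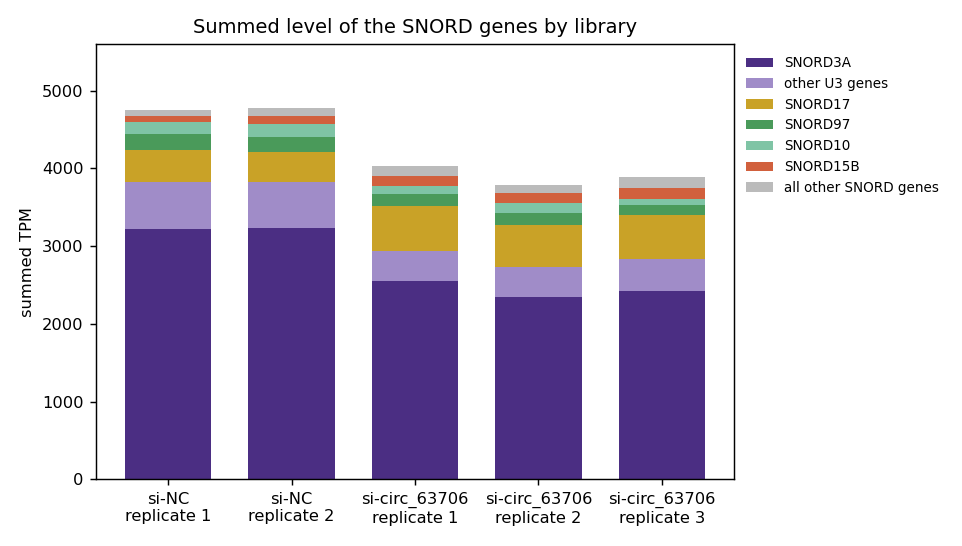
Summed TPM of all SNORD genes (vertical axis, from 0) in each of the 5 libraries, divided by gene. The U3 genes (dark and light violet) fall from 3826.62 and 3822.63 TPM to between 2728.68 and 2938.94, while the SNORD17 block (ochre) grows from 411.86 and 384.97 TPM to between 548.07 and 578.17.

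U8 moved the other way from U3. SNORD118 (U8, ENSG00000200463, chr17:8173454-8173587, minus strand) is needed to make the 5.8S and 28S ribosomal RNAs, and mutations in it cause a leukoencephalopathy with calcifications and cysts. It was at 11.46 and 9.23 TPM with si-NC and at 27.26, 21.40 and 23.48 with si-circ_63706. Every si-circ_63706 library was above both si-NC libraries, and the mean was 232% of that of si-NC (log2 fold change 1.14, SE 0.120, limma adjusted p = 0.00168). The annotation places it inside an exon of TMEM107, a membrane protein gene of the same strand, whose own level was 2.41 and 2.61 TPM with si-NC and 1.97, 2.16 and 2.59 with si-circ_63706. Reads from that exon can belong to either gene, so the division between them is uncertain.

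U22, which also acts in 18S ribosomal RNA processing, had a pair of genes with libraries at 0. SNORD22 (ENSG00000277194) was at 11.76 and 17.76 TPM with si-NC and at 8.58, 0 and 0 with si-circ_63706. The groups did not overlap, but the log2 fold change of -2.86 had a SE of 0.969 and did not pass (adjusted p = 0.0561 from limma). It passed in 3 of 15 fits. These were without si-circ_63706 replicate 1 (adjusted p = 0.00298 from limma), which was the 1 library of that group above 0, with a pseudocount of 5 (0.038) and with a minimum of 5 TPM (0.0298). SNORD22 (ENSG00000278527) was at 0 and 20.44 TPM with si-NC and at 5.62, 0 and 6.80 with si-circ_63706, with overlap. Of the 15 genes listed for ribosomal RNA processing, 8 were at 0 in every library, 7 were tested, 1 (SNORD118) was higher and 2 (SNORD3A and SNORD3B-1) were lower.

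Among the guides for 28S ribosomal RNA, SNORD17 was the most abundant and was higher with si-circ_63706. SNORD17 (ENSG00000212232), in an intron of SNX5, was at 411.86 and 384.97 TPM with si-NC and at 578.17, 548.07 and 565.83 with si-circ_63706. The groups were well apart, with means of 398 ± 19.0 (SD, n = 2) and 564 ± 15.1 (SD, n = 3), 142% of si-NC (log2 fold change 0.50, SE 0.0499, limma adjusted p = 0.00152). SNORD15B (ENSG00000207445), in an intron of RPS3, was at 75.97 and 104.85 TPM with si-NC and at 125.76, 131.74 and 135.11 with si-circ_63706. It was higher without overlap (log2 fold change 0.55, SE 0.126, limma adjusted p = 0.0166). Without si-NC replicate 1 the log2 fold change was 0.32, still past the threshold, and with no minimum TPM the limma adjusted p was 0.0943. SNORD15A (chr11:75400391-75400538), which lies in the same RPS3 gene and partly overlaps an exon of it, was at 3.35 and 2.31 TPM with si-NC and at 0, 0 and 3.56 with si-circ_63706. Its groups overlapped, and its log2 fold change of -1.19 did not pass (adjusted p = 0.188 from limma). Without si-circ_63706 replicate 3, the 1 library of that group above 0, the adjusted p was 0.00533. SNORD91B (chr17:2329016-2329237), in TSR1, overlapped between the groups with a log2 fold change of -0.14 (adjusted p = 0.790 from limma).

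Of the U6 guides named here, SNORD10 alone passed the threshold, so a shared direction cannot be judged. SNORD10 (ENSG00000238917), in EIF4A1, was at 160.02 and 165.71 TPM with si-NC and at 108.79, 130.82 and 75.92 with si-circ_63706. It was lower without overlap (log2 fold change -0.66, SE 0.205, limma adjusted p = 0.0434), close to the threshold and no longer past it without si-NC replicate 1 (adjusted p = 0.143), si-NC replicate 2 (0.166) or si-circ_63706 replicate 1 (0.0911). SNORD67 (ENSG00000212135), in CKAP5, was at 0 and 15.27 TPM with si-NC and at 12.05, 45.22 and 58.21 with si-circ_63706. The groups overlapped, and the log2 fold change of 3.03 had a SE of 1.18 (adjusted p = 0.0850 from limma). With a minimum of 5 TPM the limma adjusted p was 0.0494. Without si-NC replicate 2 the log2 fold change was 5.04, and the remaining si-NC library is at 0. In si-NC replicate 2 the lowest value above 0 of single-transcript genes within 2 bases of its length was 14.56 TPM, near its own 15.27. SNORD8 (ENSG00000200785), in CHD8, was at 30.38 and 16.61 TPM with si-NC and at 26.13, 16.37 and 31.59 with si-circ_63706 (log2 fold change 0.08, adjusted p = 0.858 from limma). For genes of like length the lowest value above 0 was 15.27 TPM in si-NC replicate 2. In si-circ_63706 replicate 2 it was 16.37, the value of SNORD8 itself. SNORD94 (chr2:86135870-86136006), in PTCD3, was at 9.66 and 13.31 TPM with si-NC and at 13.01, 7.85 and 5.14 with si-circ_63706 (log2 fold change -0.44, adjusted p = 0.322 from limma). The groups of SNORD8 and of SNORD94 overlapped.

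SNORD97 (ENSG00000238622), the tRNA guide, was lower and had the smallest residual spread of the members (SD 0.0425 on the log2 scale). It was at 201.30 and 197.47 TPM with si-NC and at 147.82, 146.30 and 138.49 with si-circ_63706, or 72.3% of the mean of si-NC (log2 fold change -0.47, SE 0.0461, limma adjusted p = 0.00149). After centring the log2 fold change was -0.31. It lies in EIF4G2 and partly overlaps an exon of a transcript of that gene with a retained intron, and CTR9 is annotated on the opposite strand there. The strand setting of the counting is not given in the sources used here. SNORD89 (chr2:101272936-101273049), in RNF149, has no target that is well known. It was at 10.92 and 0 TPM with si-NC and at 38.02, 11.83 and 11.44 with si-circ_63706, without overlap (log2 fold change 2.41, SE 1.03, limma adjusted p = 0.106). Without si-NC replicate 1 the adjusted p was 0.0256, against the 1 remaining si-NC library at 0. Among single-transcript genes within 2 bases of its length of 114, the lowest values above 0 in the 5 libraries were 10.92 and 14.56 TPM with si-NC and 9.50, 10.08 and 11.44 with si-circ_63706. SNORD89 was not left out of that set, and the lowest values of 10.92 and 11.44 TPM match its own. Its value of 11.83 TPM in si-circ_63706 replicate 2 was just above the lowest there, 10.08.

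By position, host genes hold 13 of the 17 members, in 11 genes, and the 4 U3 genes have none. TMEM107 is counted as the host of SNORD118 by position only, since U8 has a promoter of its own. The hosts include RPS3 (a ribosomal protein), EIF4A1 and EIF4G2 (translation initiation), SNX5 (endosomal sorting), CKAP5 (microtubule growth) and SNHG1 (a non-coding host gene). Of the 11 hosts, 2 were lower and none was higher by limma, also not at an unadjusted p under 0.05. Beside the 35.4% of all genes that were lower, this is no result about the hosts. EIF4A1 was at 645.18 and 638.09 TPM with si-NC and at 460.07, 470.57 and 479.32 with si-circ_63706 (log2 fold change -0.45, SE 0.0418, limma adjusted p = 0.00137), and it was also lower after centring. CKAP5 was lower as deposited (log2 fold change -0.22, adjusted p = 0.0195 from limma) and not past the threshold after centring (adjusted p = 0.325). SNX5 was at 47.15 and 48.86 TPM with si-NC and at 43.67, 44.32 and 45.30 with si-circ_63706 (log2 fold change -0.11, adjusted p = 0.0903 from limma). RPS3, with SNORD15A and SNORD15B, had a log2 fold change of -0.12, and SNHG1, with both SNORD22 genes, one of -0.06, and neither passed. After centring these values were 0.05 for SNX5, 0.04 for RPS3 and 0.10 for SNHG1, also not past the threshold. The plot of members beside their hosts shows the host changes lying within a narrow range around 0 and the snoRNA changes spread to both sides. The ends of that spread, -2.86 for SNORD22 (ENSG00000277194) and 3.03 for SNORD67, belong to members with libraries at 0 and did not pass. The called members with a host lay between -0.66 (SNORD10) and 1.14 (SNORD118).

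**Figure D5:**
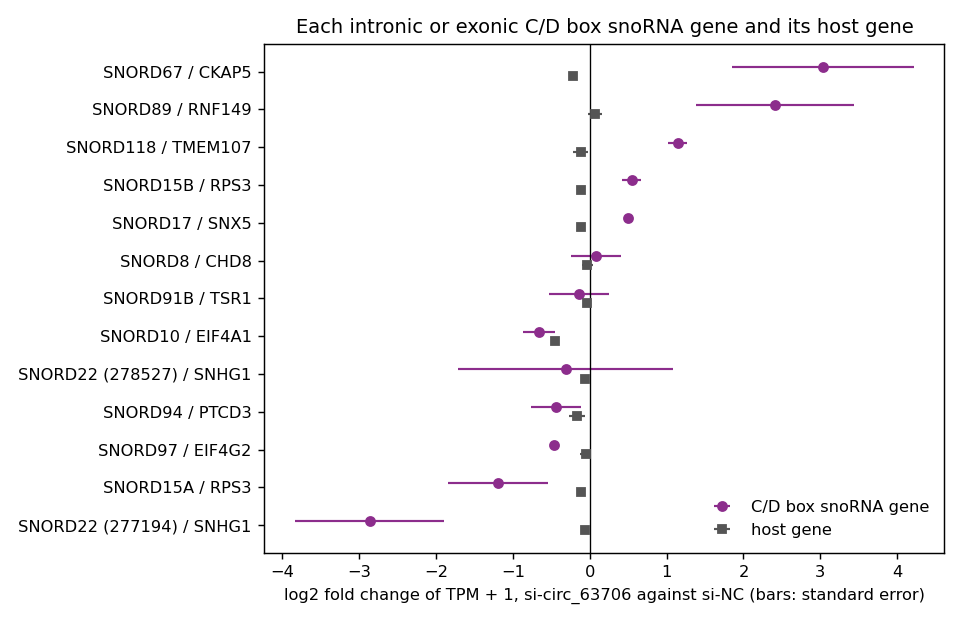
Log2 fold change of TPM + 1, si-circ_63706 against si-NC (horizontal axis), with standard errors, for 13 C/D box snoRNA genes (violet circles) and their host genes (grey squares), ordered by the change of the ratio. Host values lie between -0.45 (EIF4A1) and 0.06 (RNF149), and snoRNA values between -2.86 and 3.03. Both ends of the snoRNA range belong to members with libraries at 0 that did not pass.

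The snoRNA was also set against its host within each library. The ratios printed are of TPM, and the test was on the difference of log2(TPM + 1), which for low genes such as TMEM107 is smaller than the log2 of the TPM ratio. With a pseudocount of 0.1 no SNORD pair passed. SNORD17 stood at 8.74 and 7.88 times the TPM of SNX5 with si-NC and at 13.2, 12.4 and 12.5 times with si-circ_63706. The log2 ratio was higher by 0.61 (SE 0.109, limma adjusted p = 0.0454 over 127 pairs of a snoRNA or scaRNA gene and its host). This was the 1 SNORD pair of 13 that passed, and none was lower. Over all 127 pairs 1.57% were higher and 0% lower, with 20 pairs at an unadjusted p under 0.05. Without any 1 of the 5 libraries, no SNORD pair passed. At an unadjusted p under 0.05 stood 5 SNORD pairs, 4 with the snoRNA higher against its host (SNORD17, SNORD15B, SNORD67 and SNORD118) and 1, SNORD97, lower. SNORD118 was at 4.76 and 3.54 times the TPM of TMEM107 with si-NC and at 13.8, 9.91 and 9.07 times with si-circ_63706 (log2 ratio 1.26, limma adjusted p = 0.207). SNORD15B was at 0.121 and 0.169 times the TPM of RPS3 with si-NC and at 0.222, 0.227 and 0.233 times with si-circ_63706 (log2 ratio 0.66, adjusted p = 0.132 from limma). SNORD97 was at 1.61 and 1.47 times EIF4G2 with si-NC and at 1.29, 1.10 and 1.09 times with si-circ_63706 (log2 ratio -0.41, adjusted p = 0.213 from limma). SNORD10 was at 0.248 and 0.260 times EIF4A1 with si-NC and at 0.236, 0.278 and 0.158 times with si-circ_63706, with overlap (log2 ratio -0.21, adjusted p = 0.716 from limma). Of the 13 members with a host, 8 overlap an annotated exon of it, so reads of unprocessed or exonic host RNA can enter their values, and that part was not tested.

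The proteins of the C/D particle were lower in part, as deposited, where 35.4% of all genes were lower and 4.16% higher. The counts of the lists that follow are to be read against these shares, and nothing in them is particular to a list. FBL, the methyltransferase, had a log2 fold change of -0.46 (adjusted p = 0.0230 from limma), SNU13, which binds the RNA first, one of -0.28 (adjusted p = 0.0199) and NOP56 one of -0.23 (adjusted p = 0.0139). NOP58 had a log2 fold change of -0.02 (adjusted p = 0.778 from limma). After centring none of the 4 passed, and the value of NOP58 was 0.14. Of 13 assembly factors 4 were lower, led by RUVBL2 (-0.43), a helicase of the R2TP complex, and 1, RPAP3 (0.24), of the same complex, was higher. After centring, 2 were higher and 1 was lower. Of 7 genes for trimming or debranching of snoRNAs 2 were lower and none higher, and the same counts held after centring. Their log2 fold changes ran from -0.36 for the deadenylase PARN to -0.03 for XRN1, which did not pass. Of 12 proteins of the U3 particle and the small subunit processome 5 were lower, led by RRP9 (-0.39), a U3-specific protein, and WDR43 was at 0.03, not past the threshold. After centring, 2 were lower and 1 was higher. Of 6 H/ACA proteins 2 were lower, with log2 fold changes from -0.36 (GAR1) to -0.07 (NAF1, not past the threshold), and none passed after centring.

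The related small RNAs are given for comparison, with no test between the families, beside 4.16% of all genes higher, 35.4% lower and a median log2 fold change of -0.16. Of 107 SNORA genes of at least 1 TPM 7 were higher and 5 lower, with a median log2 fold change of -0.15. Of 19 SCARNA genes 3 were higher and 3 lower, with a median of 0.01. Of 91 tested hosts of any SNORD gene 3 were higher and 28 lower, and after centring 24 were higher and 14 lower, so their balance of directions depended on the scaling.

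The cells carried markers of their label in part. PTCH1, GLI2, HHIP, PDLIM3 and EYA1, genes of SHH medulloblastoma, had means between 1.22 and 6.37 TPM and SFRP1 was between 6.81 and 9.46 TPM in the 5 libraries, while GLI1 was at 0.352 and ATOH1 at 0.014 TPM. Of the neural markers, VIM and ZIC1 were at 892 and 13.9 TPM and SYP at 1.57, while NES and MAP2 were at 0.248 and 0.476. OTX2 was at 1.07, WIF1 at 0.088, and PTPRC, PECAM1 and ALB, of blood, vessel and liver, at up to 0.162. PCNT, the gene that gives rise to circ_63706, was at 9.96 and 10.38 TPM with si-NC and at 8.80, 7.99 and 7.54 with si-circ_63706. It was lower as deposited (log2 fold change -0.30, limma adjusted p = 0.019) and not past the threshold after centring (limma adjusted p = 0.279). The paper reports from qPCR that its siRNAs left PCNT unaffected. The table has 1 value for it, which does not separate the circular from the linear RNA, so the depletion of circ_63706 cannot be checked here.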

How the data were processed

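RNA-seq of DAOY cells with si-NC (2 libraries) or si-circ_63706 (3 libraries) was analysed from the TPM that the authors deposited, which hold 1 column per library, 60504 genes and 2 decimals. Per the labels, the submitters' processing notes name cutadapt 2.3, STAR 2.7.0d, RSEM 1.3.1 and hg38, and the order of steps, the annotation release, the strand setting and any depletion of ribosomal RNA are not given in the sources used here. RSEM estimates TPM per gene and divides reads shared by copies or overlapping transcripts by a model. Depth is unknown, so no interval for counting error was computed.

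Groups followed the labels. Genes with a mean of at least 1 TPM (12710) were fitted with limma 3.58.1 in R 4.3.3 on log2(TPM + 1), with a mean-variance trend, two-sided tests and Benjamini-Hochberg adjustment over all of them (threshold 0.05). Ratios of snoRNA to host were fitted in the same way over 127 pairs. Sums used the exact permutation test in scipy 1.17.1. The host was the gene of the same strand whose span holds the snoRNA. Positions, lengths and sequences came from GENCODE 29, which holds 369 of the 370 SNORD identifiers. Python 3.11.15, numpy 2.4.6 and pandas 2.3.3 were used.

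The members and the gene lists were chosen with earlier results of these data known. The genes named are the most abundant and the called members, the list of ribosomal RNA processing, their hosts, the core proteins, the lowest and highest of each other list, those next to the minimum, and PCNT. Alternatives were pseudocounts of 0.1 and 5, no minimum and a minimum of 5 TPM, median centring over genes of at least 10 TPM, quantile normalization, rescaling to protein-coding genes, no trend, a replicate block, leaving out each library, and, added after seeing the data, the U3 genes summed to 1 feature. The sequences of SNORD118 and SNORD15A, which overlap exons of their hosts, and of SNORD15B are not reported here.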

Additional observations from a re-analysis of the deposited data

How the results depend on the processing

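SNORD3A, SNORD17, SNORD97 and SNORD118 kept their direction and stayed past the threshold in all 15 fits of single genes. The count of members higher was 3 as reported, 5 with the replicate block, 2 to 4 in the other alternatives and 3 to 4 with each library left out. The count of members lower was 4 as reported, 6 with the replicate block, 2 with no minimum TPM, 3 to 5 in the others and 2 to 5 with each library left out, the 2 without si-NC replicate 2. Deviations from the group means showed no clear pairing by replicate number (correlations of same-numbered libraries 0.014 and 0.026 over 2 pairs). With 2 si-NC libraries these deviations mirror each other, so the values are not separate checks and cannot settle whether libraries were paired. The block made SNORD67, SNORD89, SNORD3B-2 and SNORD15A pass. Replicate 3 exists only in si-circ_63706, so the block in effect sets that library aside. Its log2 fold changes equal those without si-circ_63706 replicate 3, as for SNORD67 with 2.61 in both. No minimum TPM also took the H/ACA and scaRNA genes called from 18 to 8 (15 to 25 with each library left out). The particle proteins, assembly and processing factors called went from 15 to 6 with no minimum TPM, 8 after centring, 5 with quantile normalization, 9 rescaled to protein-coding genes, and 2 to 14 with each library left out (7 without si-NC replicate 1 and 2 without si-NC replicate 2). Hosts of SNORD genes called went from 31 to between 18 and 34 with each library left out (18 without si-NC replicate 1 and 19 without si-NC replicate 2). The SNORD17 ratio to SNX5 was no longer called with a pseudocount of 0.1 or the replicate block (0 SNORD pairs in each), nor with any library left out (0 to 0 pairs). The summed SNORD difference of -862 TPM became 130 without the U3 genes and -76.8 without SNORD3A alone. As deposited, the positive sign of the value of 130 rested on SNORD17, which was not tested after rescaling. Values not past the threshold changed sign as follows: SNORD8 (0.08 as reported) was -0.11 with the replicate block and between -0.34 and 0.50 with each library left out; SNORD22 (ENSG00000278527, -0.31) was 0.14 with a pseudocount of 0.1 and between -2.53 and 1.90 with a library left out; SNORD3C (-0.23) was between -0.42 and 0.013 with a library left out; SNORD91B (-0.14) was 0.01 after centring and between -0.80 and 0.52 with a library left out. With 1 si-NC library left out, the other is taken to vary like the si-circ_63706 libraries. The cause of these changes was not tested.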
